A study of Mus musculus with 2 samples.

Results

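Described here are 10 genes of the bone morphogenetic protein (BMP) system, the ligand Bmp4, the protease Bmp1, the receptors Bmpr1a and Bmpr2, the extracellular antagonists Grem1, Chrdl2 and Mgp, and the target genes Id1, Id2 and Id3. They were listed by name as members of the pathway, from the 32285 genes counted and with earlier results of these data known, and all 10 were present in both single-cell RNA-seq libraries. Their levels were compared between muscle stem cells (MuSCs) and their states, myocytes, Pdgfra-expressing cells and tenocytes, and between the 2 libraries. The study asked how MuSCs respond to 5 days of mechanical overload (MOV) of the mouse plantaris, a hindlimb muscle that takes over load once the muscles that share its work are cut away (synergist ablation), with a sham operation as control. Both libraries, 1 per condition, came from 26-week-old Pax7rtTA; TRE-H2B-GFP mice given 2.0 mg/ml doxycycline for 2 weeks, so the transgenes and the doxycycline were common to sham and MOV. In these mice the Pax7 locus drives the doxycycline-dependent activator, and only cells that expressed Pax7 while the drug was given should carry the GFP-tagged histone. The labels speak of a single mouse, whereas the study's methods describe several animals per group, and the sort is given as GFP in one source and as VCAM+ CD31- CD45- SCA1- in the other. No replicate check was possible with 1 library per condition. Every interval given below is a 95% interval for counting error alone, and no test between sham and MOV could be made.

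BMP ligands such as the BMP4 protein bind pairs of type I receptors, of which Bmpr1a encodes one, and type II receptors, of which Bmpr2 encodes one, and the type I receptor then phosphorylates SMAD1, SMAD5 and SMAD9. The Id genes are classical targets of these SMAD proteins, and ID proteins hold back muscle differentiation by binding the E proteins with which MyoD pairs. The secreted proteins encoded by Grem1, Chrdl2 and Mgp bind BMP ligands outside the cell. BMP1, despite its name, is a metalloprotease, which trims procollagens and cleaves the antagonist chordin. In muscle, BMP signalling is known for keeping activated MuSCs dividing and for maintaining muscle mass.

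In the GRCm38 annotation all 10 are protein-coding genes. The signalling genes are Bmp4 (ENSMUSG00000021835, chr14:46383520-46390669, minus strand), Bmp1 (ENSMUSG00000022098, chr14:70474558-70520234, minus strand), Bmpr1a (ENSMUSG00000021796, chr14:34410734-34503341, minus strand) and Bmpr2 (ENSMUSG00000067336, chr1:59763400-59879014, plus strand). The antagonists are Grem1 (ENSMUSG00000074934, chr2:113746164-113758646, minus strand), Chrdl2 (ENSMUSG00000030732, chr7:100006172-100034728, plus strand) and Mgp (ENSMUSG00000030218, chr6:136872435-136875823, minus strand). The targets are Id1 (ENSMUSG00000042745, chr2:152736251-152737410, plus strand), Id2 (ENSMUSG00000020644, chr12:25093799-25097140, minus strand) and Id3 (ENSMUSG00000007872, chr4:136143497-136145755, plus strand).

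The sham library held 1100 barcodes with 7302661 unique molecular identifiers (UMIs, 1 per captured RNA molecule) and the MOV library 3854 barcodes with 88498487 UMIs, and 671 and 2798 cells were kept. Cells were grouped by the UMIs of marker genes, none of which is among the 10. The MuSC label held for only some of the sorted cells: there were 114 MuSCs in sham and 1450 in MOV, beside 1 and 168 myocytes, 35 and 347 Pdgfra cells, 18 and 75 tenocytes, and 426 and 18 droplets dominated by fibre transcripts. A further 287 MOV cells carried both Pdgfra-cell and tenocyte markers. All 9 MuSC markers had UMIs in the MuSCs of both libraries, and their summed level was 3745 CPM (UMIs per 1000000 UMIs) in sham and 1354 CPM in MOV. The median depth of MuSCs was 7915 UMIs in sham and 22662.5 in MOV. The libraries shared 44 barcodes, which had a median of 28980.5 UMIs in sham and 689.5 in MOV. In sham, 9 MuSCs with 30.1% of that group's UMIs and 2 Pdgfra cells with 23.0% carried a shared barcode, whereas no tenocyte did. Several results that rest on those cells are therefore given with and without them.

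Levels below are a gene's summed UMIs as a part of all UMIs of the cell group, in CPM. The counts come from the 3' end of transcripts and are not divided by length, so a gene is compared between cells and not with another gene. A gene entered a comparison when it had at least 20 UMIs in the 2 cell sets together, and a ratio of CPM past 2-fold was counted beside the share of all genes past 2-fold in that comparison. With summed counts, fewer expressing cells and less RNA per cell cannot be told apart. Shares of cells with a UMI are also given, after cells were thinned to 2000 UMIs. They come from the same counts, and for a gene of low level they do not separate the 2 either. Cells with under 2000 UMIs were left out of thinned values, among them 15 of the 75 MOV tenocytes.

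**Figure D1:**
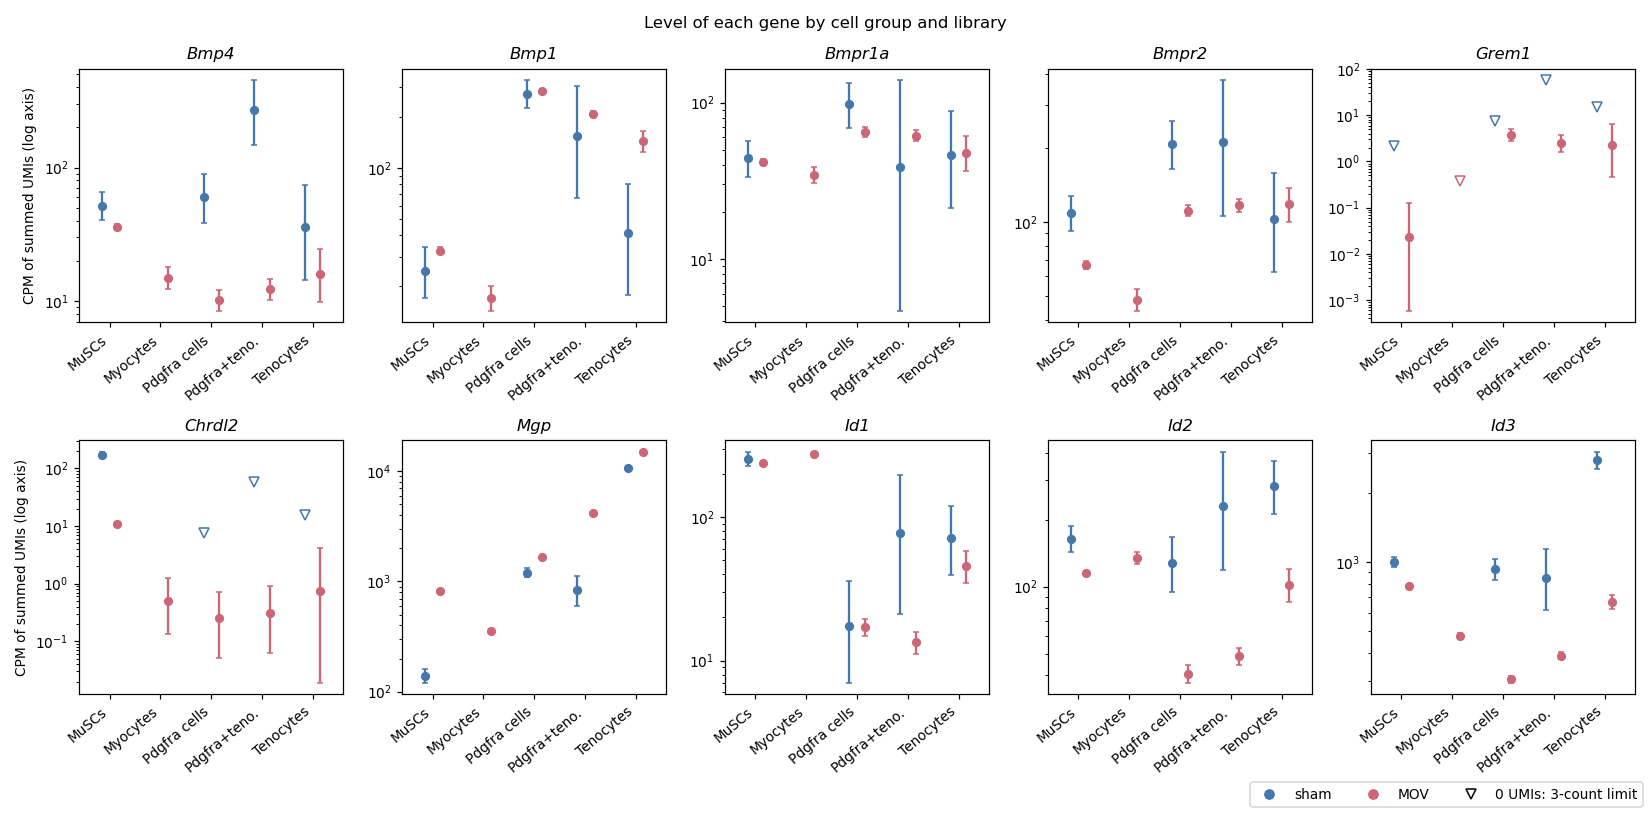
Level of each of the 10 genes (CPM, log axis) in MuSCs, myocytes, Pdgfra cells, tenocytes and cells with both of the latter marker lists, for groups of at least 5 cells in the sham and MOV libraries. Points are the summed level of the group with 95% Poisson intervals, and open triangles mark the limit of 3 counts where no UMI was seen. Chrdl2 is highest in MuSCs (172 CPM in sham), Mgp in tenocytes (14799 CPM in MOV) and Bmp1 in Pdgfra cells (285 CPM in MOV).

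Bmp4 was detected in MuSCs, Pdgfra cells and tenocytes of both libraries, and in the MOV library MuSCs were highest of the 4 groups compared. Its level there was 36.1 CPM (34.3 to 37.9) in MuSCs, 15.9 CPM (9.84 to 24.3) in tenocytes, 14.9 CPM (12.4 to 17.9) in myocytes and 10.1 CPM (8.42 to 12.1) in Pdgfra cells. The intervals of tenocytes and myocytes overlapped, as did those of tenocytes and Pdgfra cells, while that of MuSCs lay above all of them. In sham the level was 59.9 CPM (38.4 to 89.2) in Pdgfra cells, 51.9 CPM (40.6 to 65.4) in MuSCs and 35.9 CPM (14.4 to 74.0) in tenocytes, with all intervals overlapping. Another 5 sham cells, which carried both Pdgfra-cell and tenocyte markers, had 269.6 CPM (147 to 452) on 14 UMIs, against 12.3 CPM (10.2 to 14.7) in the 287 MOV cells of that kind. MuSCs held 75.3% of the Bmp4 UMIs of all kept MOV cells, and over all genes 43517535 of the 83053129 UMIs of those cells.

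Bmp1 was highest in Pdgfra cells. Pdgfra cells had 285 CPM (276 to 295) in MOV and 275 CPM (226 to 331) in sham, against 32.6 CPM (30.9 to 34.3) and 24.5 CPM (17.0 to 34.3) in MuSCs. That is 8.75-fold higher in Pdgfra cells of the MOV library and 11.2-fold higher in those of the sham library, so the order held in both. MOV tenocytes lay in between at 144 CPM (124 to 166), whereas sham tenocytes, at 41.1 CPM (17.7 to 80.9), overlapped sham MuSCs, and MOV myocytes were lowest at 17.0 CPM (14.3 to 20.1). On cells thinned to 2000 UMIs, 44.5% (39.1% to 49.9%) of MOV Pdgfra cells and 7.07% (5.80% to 8.52%) of MOV MuSCs had a Bmp1 UMI.

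In the MOV library the receptors varied less over the 4 groups than the ligand, the antagonists or the Id genes. Bmpr1a ranged from 34.4 CPM (30.5 to 38.7) in myocytes to 64.8 CPM (60.4 to 69.6) in Pdgfra cells of the MOV library, with 41.7 CPM (39.8 to 43.6) in MuSCs. Its log2 ratio of Pdgfra cells to MuSCs was 0.64 (0.51 to 0.76) in MOV and 1.15 (0.53 to 1.75) in sham, and the latter point was past 2-fold. Without the shared barcodes the sham ratio was 1.65. Bmpr2 ranged from 48.0 CPM (43.4 to 53.0) in myocytes to 118 CPM (100.3 to 138) in tenocytes of the MOV library. Pdgfra cells and tenocytes did not differ in Bmpr2 beyond their intervals there, and both lay above MuSCs. In sham, Bmpr2 was 207 CPM (165 to 257) in Pdgfra cells and 109 CPM (92.2 to 128) in MuSCs.

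Chrdl2, a chordin-like antagonist, was highest in MuSCs among the groups compared. It stood at 172 CPM (151 to 195) in sham MuSCs (238 UMIs) and 10.8 CPM (9.82 to 11.8) in MOV MuSCs (469 UMIs), whereas sham Pdgfra cells and tenocytes had 0 UMIs. Against the limit of 3 counts that 0 UMIs allow, sham Pdgfra cells were at least 22.9-fold lower than MuSCs and sham tenocytes at least 11.1-fold lower. In MOV there were 3 Chrdl2 UMIs in Pdgfra cells (log2 ratio to MuSCs -5.43, -7.72 to -3.88), 4 in myocytes (-4.45, -6.33 to -3.08) and 1 in tenocytes. After thinning, 0 of 344 MOV Pdgfra cells had a Chrdl2 UMI, which allows a share of up to 0.872%. MuSCs, 51.8% of the kept MOV cells, carried 86.2% of the Chrdl2 UMIs of those cells. Another 60 UMIs were in cells that passed several marker lists and were left out of the groups.

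Mgp, which encodes matrix Gla protein, had its highest level in tenocytes. It reached 10753 CPM (10297 to 11223) in sham tenocytes and 14799 CPM (14592 to 15008) in MOV tenocytes, against 139.9 CPM (121 to 161) and 822 CPM (813 to 830.4) in MuSCs. Pdgfra cells were intermediate at 1201 CPM (1096 to 1314) in sham and 1675 CPM (1652 to 1698) in MOV, and MOV myocytes had 359 CPM (346 to 372). The MOV groups that had no comparison gave a measure of the Mgp signal in other cells: 81.1 CPM in immune cells, 136 CPM in endothelial cells and 2304 CPM in mural cells. MOV MuSCs and myocytes lay above all but the mural cells. The cells with both Pdgfra-cell and tenocyte markers had 4175 CPM, a log2 ratio to Pdgfra cells of 1.32 (1.29 to 1.34).

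Grem1, which encodes gremlin, was rare. It had 0 UMIs in every sham group, and in MOV there were 46 UMIs in Pdgfra cells, 24 in cells with both marker lists, 3 in tenocytes and 1 in MuSCs. The Pdgfra-cell UMIs came from 6 cells, and 37 of the 46 came from 1 cell. The log2 ratio of MOV Pdgfra cells to MuSCs, 7.38 (4.83 to 12.71), therefore rests mainly on that cell.

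Among the groups compared, Id1 was highest in MuSCs and myocytes. MOV myocytes had 274 CPM (263 to 286) and MOV MuSCs 238 CPM (233 to 242), while tenocytes had 45.4 CPM (34.7 to 58.5) and Pdgfra cells 17.1 CPM (14.9 to 19.6). Pdgfra cells were 13.9-fold lower than MuSCs in MOV, and in sham their log2 ratio to MuSCs was -3.86 (-5.19 to -2.81). After thinning, 29.2% (26.9% to 31.7%) of MOV MuSCs and 35.4% (26.6% to 45.0%) of sham MuSCs had an Id1 UMI, against 3.20% (1.61% to 5.65%) of MOV Pdgfra cells and 3.57% (0.435% to 12.3%) of MOV immune cells. Before thinning, the median depths of these 4 groups were 22662.5, 7915, 32987 and 9738 UMIs. Vascular cells, which entered no comparison, also had Id1: 247 CPM (183 to 326) in 21 MOV endothelial cells, 501 CPM (259 to 874) in 3 sham endothelial cells and 952 CPM (309 to 2221) in 2 sham mural cells.

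Id2 and Id3 had no such fixed order. Id3 in sham was 2797 CPM (2567 to 3042) in tenocytes, 999 CPM (947 to 1053) in MuSCs and 929 CPM (837 to 1028) in Pdgfra cells, and the latter 2 overlapped. In MOV it was 782 CPM (773 to 790.0) in MuSCs, 667 CPM (624 to 713) in tenocytes, 474 CPM (459 to 489.6) in myocytes and 305 CPM (296 to 315) in Pdgfra cells. MuSCs thus took the place of tenocytes as the highest of the groups compared. Id2 in sham was 282 CPM (213 to 367) in tenocytes, 164 CPM (144 to 187) in MuSCs and 127 CPM (94.8 to 167) in Pdgfra cells. In MOV it was 135 CPM (127 to 143) in myocytes, 115 CPM (112 to 118) in MuSCs, 101 CPM (85.0 to 120.2) in tenocytes and 40.6 CPM (37.1 to 44.3) in Pdgfra cells, with the MuSC and tenocyte intervals overlapping.

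Between the stromal groups of the MOV library, 4 of the 9 genes that entered were past 2-fold higher in tenocytes than in Pdgfra cells, Id1 (1.41, 0.97 to 1.83), Id2 (1.32, 1.04 to 1.60), Id3 (1.13, 1.02 to 1.23) and Mgp (3.14, 3.12 to 3.17), and none was lower, where 6.37% of all genes were higher and 13.1% lower. Id1 was at 0.86 with every cell weighted equally, and Id3 at 0.96 with cells of both marker lists counted as Pdgfra cells. In the cells with both marker lists Mgp was the 1 gene past 2-fold higher than in Pdgfra cells, where 2.03% of all genes were higher and 3.45% lower. In sham, 2 of the 9 genes were higher in tenocytes than in MuSCs (Id3, 1.49, 1.34 to 1.63, and Mgp, 6.26, 6.05 to 6.48) and 2 lower (Chrdl2 and Id1), beside 16.2% and 23.5% of all genes. Without the shared barcodes the Mgp ratio was 7.79 and the Id3 ratio 1.29, and with thinning the Id3 ratio was 0.97, within 2-fold.

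Counted over the MOV library, 3 of the 10 genes were past 2-fold higher in Pdgfra cells than in MuSCs (Bmp1, Grem1 and Mgp) and 5 were past 2-fold lower (Bmp4, Chrdl2, Id1, Id2 and Id3), where 19.1% of all genes were higher and 15.5% lower. In sham, 3 of the 9 genes that entered were higher (Bmp1, Bmpr1a and Mgp) and 2 lower (Chrdl2 and Id1), against 19.8% and 17.6% of all genes. The sham Mgp ratio, 3.10, was 5.00 without the shared barcodes. Both libraries therefore shared the direction of Bmp1 and Mgp, higher in Pdgfra cells, and of Chrdl2 and Id1, lower. For Bmp4 and Id3 the sham log2 ratios were 0.21 (-0.52 to 0.89) and -0.10 (-0.27 to 0.06), whose intervals held 0, against -1.83 (-2.11 to -1.56) and -1.36 (-1.41 to -1.31) in MOV. Between MOV tenocytes and MuSCs, 2 of 9 genes were higher (Bmp1 and Mgp) and 3 lower (Bmp4, Chrdl2 and Id1), beside 16.5% and 18.8% of all genes. The Bmp4 ratio of tenocytes to MuSCs, -1.18, was -0.09 with thinning, so that call did not hold. Between MOV myocytes and MuSCs none of 9 was higher and 3 were lower, Bmp4 (-1.27, -1.55 to -1.004), Chrdl2 and Mgp (-1.20, -1.25 to -1.14), beside 7.35% and 11.3% of all genes. With thinning the Bmp4 ratio of myocytes to MuSCs was -0.51, within 2-fold. Myocytes, the differentiating cells, had Id1 and Id2 ratios to MuSCs of 0.20 (0.14 to 0.27) and 0.23 (0.13 to 0.32) and an Id3 ratio of -0.72 (-0.77 to -0.67), all within 2-fold.

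Between MOV and sham MuSCs, Chrdl2 was lower and Mgp higher, and the other 7 genes that entered lay within 2-fold. Chrdl2 was 15.9-fold lower in MOV, a log2 ratio of -3.99 (-4.22 to -3.76), and Mgp was 5.87-fold higher, 2.55 (2.35 to 2.77). Over all genes, 13.8% were past 2-fold higher and 9.84% past 2-fold lower, and the median log2 ratio was 0.11. The 2 genes are 1 of 9 in each direction, close to the share over all genes.

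**Figure D2:**
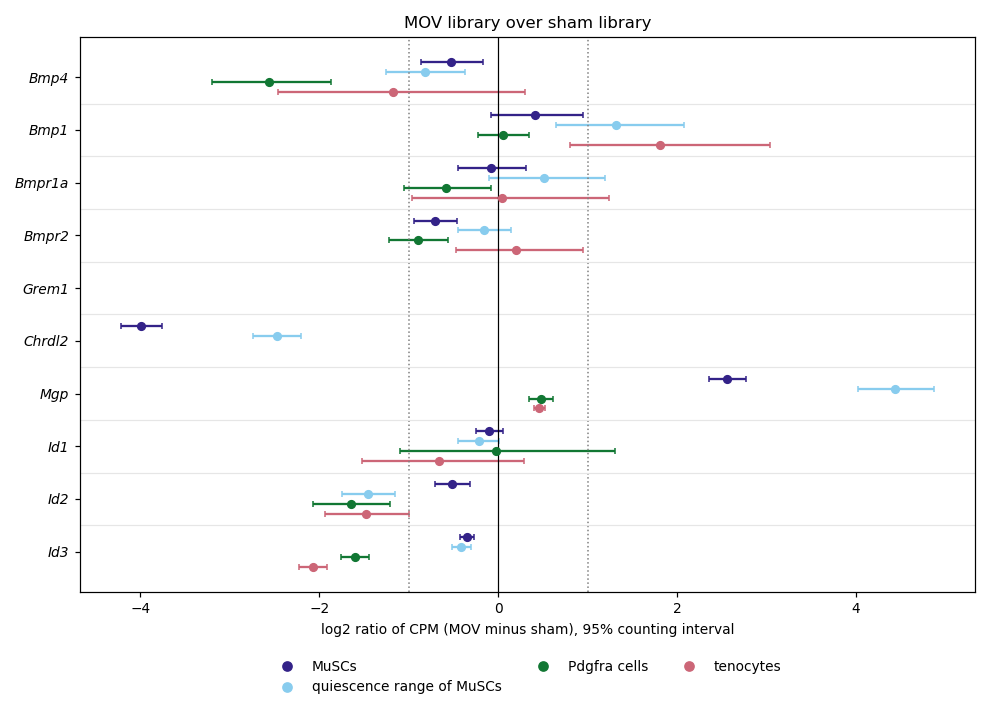
log2 ratio of CPM in MOV to CPM in sham for each gene in MuSCs, the quiescence range of MuSCs (described below), Pdgfra cells and tenocytes. Bars are 95% counting intervals, and dotted lines are at 2-fold. Chrdl2 lies furthest to the lower side and Mgp to the higher side in MuSCs and in their quiescence range. Id2 and Id3 lie past 2-fold lower in Pdgfra cells and tenocytes. Grem1 is not drawn, since sham had 0 UMIs and the MOV level lay under the limit that 3 sham counts would give.

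The share of cells with a Chrdl2 UMI was also lower in MOV, but it comes from the same counts as the level and is no separate support. After thinning, 29.2% (21.0% to 38.5%) of sham MuSCs and 3.05% (2.22% to 4.07%) of MOV MuSCs had a Chrdl2 UMI. The 9 sham MuSCs with a shared barcode had 0 Chrdl2 UMIs, and the other 105 stood at 245 CPM (215 to 279), which takes the log2 ratio to -4.50. With thinning the ratio was -3.37, and with every cell weighted equally -3.36, so its size depended on the weighting. MuSCs of the quiescence range, described below, were at 296 CPM in sham and 53.4 CPM in MOV, a log2 ratio of -2.47 (-2.74 to -2.21). With thinning it was -1.90 and with equal weighting -1.99. MuSCs outside S and G2/M were at 211 and 22.1 CPM, -3.26 (-3.50 to -3.01), or -3.59 without the shared barcodes. For these cells thinning gave -2.75 and equal weighting -2.69. Of the 9 genes, 2 were past 2-fold higher in those cells, Mgp (3.84, 3.54 to 4.16) and Bmp1 (1.07, 0.49 to 1.70), and Chrdl2 alone was lower. Without the shared barcodes Mgp was at 4.43, and with TMM factors Bmp1 was at 0.88. Over all genes there, 15.9% were higher and 8.15% lower, with a median log2 ratio of 0.18. Chrdl2 was thus also past 2-fold lower in MOV within the quiescence range and among cells outside the cycling ranges.

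The size of the Mgp difference depended on a few sham cells. Its 194 UMIs in sham MuSCs came from 6 cells, 5 of which held 99.0%, and the cells with shared barcodes were at 353 CPM (298 to 414) against 48.5 CPM (35.6 to 64.5) in the others. Without the shared barcodes the log2 ratio was 4.09 in place of 2.55. After thinning, 3.54% (0.973% to 8.82%) of sham MuSCs and 44.3% (41.7% to 46.9%) of MOV MuSCs had an Mgp UMI, compared with 23.2% (13.0% to 36.4%) of MOV immune cells, which should lack the gene. The quiescence range gave 61.9 CPM in sham and 1335 CPM in MOV, 4.43 (4.02 to 4.88). Marker lists of other cells went both ways. The summed tenocyte list, higher in MOV as Mgp was, stood at 18.0 CPM in sham MuSCs and 59.1 CPM in MOV MuSCs. It was at 12856 CPM in MOV tenocytes and 67.3 CPM in MOV immune cells, and its part in the Mgp difference was not tested. In sham MuSCs 4 of the 7 tenocyte markers had UMIs and Tnmd, Chad and Kera had 0, and in MOV MuSCs all 7 had UMIs, mostly of Scx. The summed Pdgfra-cell list was lower in MOV, at 156 CPM in sham MuSCs (3 of 6 markers with UMIs) and 41.5 CPM in MOV MuSCs (6 of 6). A single gene gave 153 of the 156 CPM in sham.

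The ligand, the receptors and the Id genes differed less in MuSCs. Bmp4 had a log2 ratio of MOV to sham of -0.53 (-0.87 to -0.16), Bmpr2 of -0.70 (-0.94 to -0.46), Id2 of -0.52 (-0.71 to -0.32) and Id3 of -0.35 (-0.43 to -0.28), each with an interval below 0 and a point within 2-fold. Bmpr1a (-0.08, -0.45 to 0.31), Bmp1 (0.41, -0.08 to 0.95) and Id1 (-0.10, -0.25 to 0.06) had intervals that held 0. Without the shared barcodes these 7 genes also stayed within 2-fold, from -0.80 for Bmpr2 to 0.60 for Bmp1. The share of thinned MuSCs with an Id3 UMI was 61.9% (52.3% to 70.9%) in sham and 62.4% (59.9% to 64.9%) in MOV. Bmp1 and Id2 depended on how cells were weighted: with every cell thinned to 2000 UMIs their ratios were 1.09 and -1.36, and with every cell weighted equally 1.06 and -1.005, all past 2-fold. The receptors also moved, within 2-fold. With thinning Bmpr2 was at -0.06 and Bmpr1a at 0.72, and with every cell weighted equally they were at -0.55 and 0.35.

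Within the quiescence range the same 2 genes stood out, and Bmp1 and Id2 joined them. Bmp1 was 25.0 CPM in sham and 62.4 CPM in MOV, 1.32 (0.65 to 2.07), and Id2 was 184 and 67.2 CPM, -1.46 (-1.75 to -1.16). In that comparison 20.1% of all genes were past 2-fold higher and 7.72% lower, with a median log2 ratio of 0.25. Bmp4 (-0.82, -1.26 to -0.37) and Id3 (-0.41, -0.52 to -0.31) stayed within 2-fold, with intervals below 0. The genes past 2-fold depended on the weighting: Bmpr1a was at 1.39 with thinning, past 2-fold, but at 0.50 with every cell weighted equally. Bmpr2 was at 0.38 and -0.01 in these settings. In the sham quiescence range only 1 cell carried a shared barcode.

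MuSC states were taken as ranges of marker signal: a MuSC was in a range when the UMIs of that list passed a fixed number per 10000 UMIs, and a cell could be in several. In sham, 94 of 114 MuSCs were in the quiescence range and 17 in the immediate-early range, and too few were in the matrix (2), S phase (10) and G2/M (6) ranges to compare. In MOV there were 310 MuSCs in the quiescence, 110 in the immediate-early, 319 in the matrix, 426 in the S phase and 560 in the G2/M range, and 325 in none. Many MOV cells lay within 1.5 times the number that set a range, 37.7% in the quiescence and 69.6% in the matrix range, so these are ranges of a signal and not cell types.

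**Figure D3:**
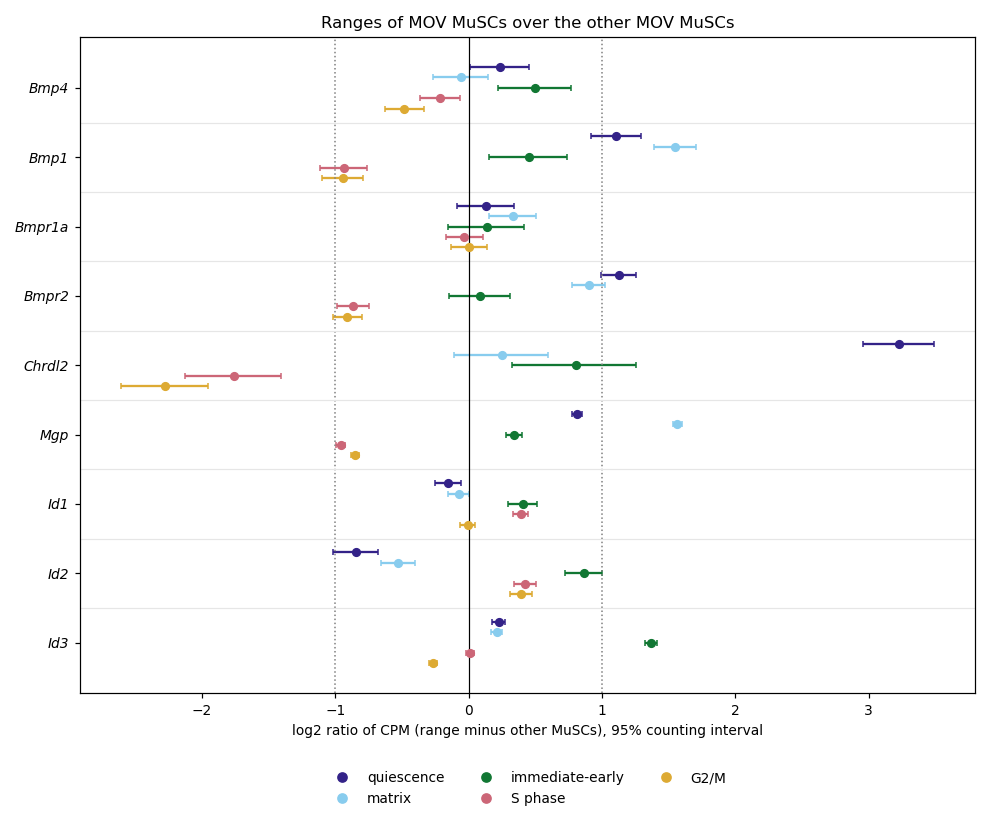
log2 ratio of CPM in each marker range of MOV MuSCs to CPM in the MOV MuSCs outside it, with 95% counting intervals and dotted lines at 2-fold. Chrdl2 lies furthest to the right in the quiescence range, Mgp and Bmp1 in the matrix range and Id3 in the immediate-early range, and Grem1, with 1 UMI, is not drawn.

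In MOV the antagonists separated the ranges. Chrdl2 was 53.4 CPM in the quiescence range and 5.71 CPM in the other MuSCs, 3.22 (2.96 to 3.49), and cells in S phase or G2/M were at 4.50 CPM against 22.1 CPM in those outside, -2.29 (-2.60 to -1.995). With MOV MuSCs divided into 4 bins of like size by quiescence-list signal, Chrdl2 was 1.11, 5.78, 11.5 and 49.8 CPM from the lowest bin to the highest. Mgp was 1871 CPM in the matrix range and 632 CPM in the others, 1.56 (1.53 to 1.60). The matrix number was also passed by 346 of the 347 MOV Pdgfra cells and 74 of the 75 MOV tenocytes. The part of RNA from such cells in the Mgp and Bmp1 levels of this range was not tested. Mgp was also higher along the quiescence bins, at 439, 887, 1158 and 1331 CPM, and within 2-fold lower in S phase or G2/M (-0.95, -0.98 to -0.92). So the gene that was lower in MOV MuSCs and the gene that was higher both had more signal in MOV cells with more quiescence signal. The quiescence list is not particular to MuSCs: in sham it summed to 1508 CPM in MuSCs, 1848 CPM in Pdgfra cells and 2956 CPM in tenocytes. A single gene gave 1295 of the 1508 CPM in sham MuSCs, and its part in the Mgp bins was not tested.

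Bmp1 and Bmpr2 had a like pattern. Bmp1 was past 2-fold higher in the quiescence range (1.11, 0.91 to 1.29) and the matrix range (1.55, 1.39 to 1.71), and past 2-fold lower in S phase or G2/M (-1.05, -1.21 to -0.90). Bmpr2 was past 2-fold higher in the quiescence range (1.13, 0.99 to 1.26), within 2-fold in the matrix range (0.90, 0.78 to 1.02) and just past 2-fold lower in S phase or G2/M (-1.01, -1.11 to -0.90). With thinning the quiescence-range ratios were 0.87 for Bmp1 and 0.90 for Bmpr2, and with every cell weighted equally 0.77 and 0.97, so these 2 calls did not hold. In S phase or G2/M the calls of Bmp1 and Bmpr2 were also lost, with TMM factors at -0.99 and -0.94. Bmpr1a stayed within 2-fold in every MOV range, from -0.04 in S phase or G2/M to 0.33 in the matrix range. Bmp4 did so too, from -0.48 in G2/M to 0.50 in the immediate-early range.

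Of the Id genes, Id3 was past 2-fold higher in the immediate-early range. Id3 was 1853 CPM there and 718 CPM in the other MOV MuSCs, 1.37 (1.32 to 1.41), and Id2 (0.86, 0.73 to 0.998) and Id1 (0.41, 0.30 to 0.51) were higher within 2-fold. In 4 bins by immediate-early signal, Id3 was 677, 821, 1211 and 2190 CPM in sham and 606, 759, 760 and 1186 CPM in MOV. Id3 was highest in the top bin of both libraries. Id1 and Id2 had no such order, with MOV values of 206, 278, 232 and 248 CPM for Id1 and of 129, 105, 96.0 and 122 CPM for Id2 from the lowest bin to the highest. Genes of this list are also known to respond to tissue dissociation, whose part in the Id3 pattern was not tested. In S phase, Id1 and Id2 were higher within 2-fold (0.39 and 0.42), and Id2 was lower within 2-fold in the quiescence range (-0.84, -1.01 to -0.68).

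The share of all genes past 2-fold in these MOV comparisons was 7.42% higher and 11.9% lower for the quiescence range (3 of the 9 genes higher), 7.99% and 3.10% for the immediate-early range (1 higher), 5.59% and 6.03% for the matrix range (2 higher), 3.79% and 5.56% for the S phase range (Chrdl2 lower), 6.40% and 6.15% for the G2/M range (Chrdl2 lower) and 7.69% and 6.62% for S phase or G2/M (Chrdl2, Bmp1 and Bmpr2 lower). In sham, Chrdl2 was 296 CPM in the quiescence range and 20.7 CPM in the other 20 MuSCs, 3.84 (3.04 to 4.77), where 13.9% of all genes were higher and 18.8% lower. Of those 20 cells, 8 carried shared barcodes, held 62.6% of their UMIs and had 0 Chrdl2 UMIs. Without shared barcodes the Chrdl2 levels were 306 CPM (267 to 349) and 55.4 CPM (29.5 to 94.8), a log2 ratio of 2.46, and with thinning it was 1.66. Bmp4 (1.53, 0.71 to 2.43) and Bmpr2 (1.15, 0.62 to 1.70) were past 2-fold higher there, at 2.55 and 1.72 without shared barcodes, but with stricter marker numbers Bmp4 was at 0.72. The sham Mgp ratio of -1.92 turned to 2.32 without the shared barcodes and has no settled direction.

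In Pdgfra cells Bmp4, Id2 and Id3 were past 2-fold lower in MOV than in sham, and none of the 9 genes that entered was past 2-fold higher, beside 11.9% of all genes higher and 16.7% lower. Grem1 was among the 9, with 46 UMIs against 0, but its MOV level lay under the limit of 3 sham counts and no fold is given. Bmp4 was 59.9 CPM in sham (24 UMIs) and 10.1 CPM in MOV (122 UMIs), -2.56 (-3.20 to -1.87). Id2 was 127 and 40.6 CPM, -1.65 (-2.07 to -1.20), and Id3 was 929 and 305 CPM, -1.60 (-1.76 to -1.45). The sham values came from 35 cells, and the 5 cells with most UMIs held 70.8% of Bmp4, 84.3% of Id2 and 58.6% of Id3. The 2 sham cells with a shared barcode had 0 Bmp4 UMIs and 446 CPM (319.8 to 605) of Id3, against 77.8 CPM (49.9 to 116) of Bmp4 and 1073 CPM (961 to 1195) of Id3 in the other 33. Without the 2 cells the log2 ratios were -2.93 for Bmp4, -1.20 for Id2 and -1.81 for Id3, all still past 2-fold. Bmpr2 was lower within 2-fold (-0.90, -1.22 to -0.56), Bmpr1a as well (-0.59, -1.05 to -0.08), Mgp was higher within 2-fold (0.48, 0.35 to 0.61), and the Bmp1 interval held 0 (0.05, -0.22 to 0.34). Without the 2 cells Mgp was at 0.12 and Bmp1 at 0.48, and with every cell weighted equally at -0.21 and 0.57, so Mgp had no settled direction. The summed immediate-early list was also lower in MOV, at 11792 CPM in sham and 4284 CPM in MOV Pdgfra cells, and its part in the Id2 and Id3 differences was not tested. The make-up of the group differed as well. The activated range, described below, held 2 of 35 sham and 229 of 347 MOV Pdgfra cells, and the parenchymal range 13 and 95. Among MOV Pdgfra cells Bmp4 was lower in the activated and higher in the parenchymal range. The part of this make-up in the Bmp4 difference was not tested.

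The start regions of these 3 genes, 300 bases each from 250 before to 50 after the RefSeq start (GRCm38.p6), are shown because the genes were lower together in MOV Pdgfra cells. They lie at chr14:46390620-46390919, minus strand for Bmp4, chr12:25096043-25096342, minus strand for Id2 and chr4:136143572-136143871, plus strand for Id3. Capitals mark GGCGCC, a palindromic string of letters known for binding by BMP-activated SMAD proteins.
Bmp4: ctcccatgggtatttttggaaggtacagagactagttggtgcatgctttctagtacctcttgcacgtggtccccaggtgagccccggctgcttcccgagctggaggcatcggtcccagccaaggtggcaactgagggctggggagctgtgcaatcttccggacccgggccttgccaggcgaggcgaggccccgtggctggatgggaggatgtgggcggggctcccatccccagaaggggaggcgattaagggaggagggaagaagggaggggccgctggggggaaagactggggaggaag
Id2: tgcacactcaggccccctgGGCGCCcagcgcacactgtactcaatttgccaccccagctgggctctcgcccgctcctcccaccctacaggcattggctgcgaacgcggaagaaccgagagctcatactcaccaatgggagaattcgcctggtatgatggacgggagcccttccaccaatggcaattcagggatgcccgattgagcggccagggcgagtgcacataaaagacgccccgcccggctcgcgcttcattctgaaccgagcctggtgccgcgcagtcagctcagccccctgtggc
Id3: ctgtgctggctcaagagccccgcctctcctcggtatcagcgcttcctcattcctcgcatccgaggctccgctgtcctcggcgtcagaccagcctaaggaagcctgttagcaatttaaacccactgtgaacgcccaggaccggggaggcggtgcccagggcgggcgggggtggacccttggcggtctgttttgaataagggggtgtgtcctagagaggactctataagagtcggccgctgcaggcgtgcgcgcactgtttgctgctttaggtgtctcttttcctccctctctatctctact

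The table used held an entry for 6 of the 10 genes, leaving Id1, Bmp1, Chrdl2 and Mgp without one. GGCGCC occurred in 4 of the 6, Bmpr1a, Bmpr2, Id2 and Grem1, and in 11.9% of 32851 start regions of the same length. The 6 windows were 59.3% to 79.3% G and C, against a median of 52.7% over all start regions. The string holds only G and C, and the 11.9% is not matched for this content. In Id2 GGCGCC began 231 bases before the start, and in Bmp4 and Id3 it did not occur in this window. The palindrome GTCTAGAC, another SMAD-binding string, occurred in none of the 6 and in 0.213% of all. A match is a run of letters and no measured binding.

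In tenocytes, too, Id2 and Id3 were past 2-fold lower in MOV. Id3 was 2797 CPM in the 18 sham tenocytes and 667 CPM in the 75 of MOV, -2.07 (-2.22 to -1.91), and Id2 was 282 and 101 CPM, -1.48 (-1.94 to -0.996). Bmp4 was 35.9 and 15.9 CPM, -1.18 (-2.46 to 0.30), a point past 2-fold lower with an interval that held 0, and at a mitochondrial limit of 5% it was -0.78. Bmp1 was the 1 gene past 2-fold higher, 41.1 CPM on 8 UMIs in sham and 144 CPM on 190 in MOV, 1.81 (0.80 to 3.04), or 0.90 with every cell weighted equally. Of the 8 genes that entered, 1 was higher and 3 lower, where 17.8% of all genes were higher and 12.0% lower. Id2 and Id3 were thus lower in MOV in all 3 of the groups that had a sham counterpart, within 2-fold in MuSCs and past it in Pdgfra cells and tenocytes. The difference between these groups was not tested. The summed immediate-early list moved the same way, from 23117 CPM in sham to 6952 CPM in MOV tenocytes and from 2639 to 1771 CPM in MuSCs, and its part in the Id2 and Id3 differences was not tested.

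**Figure D4:**
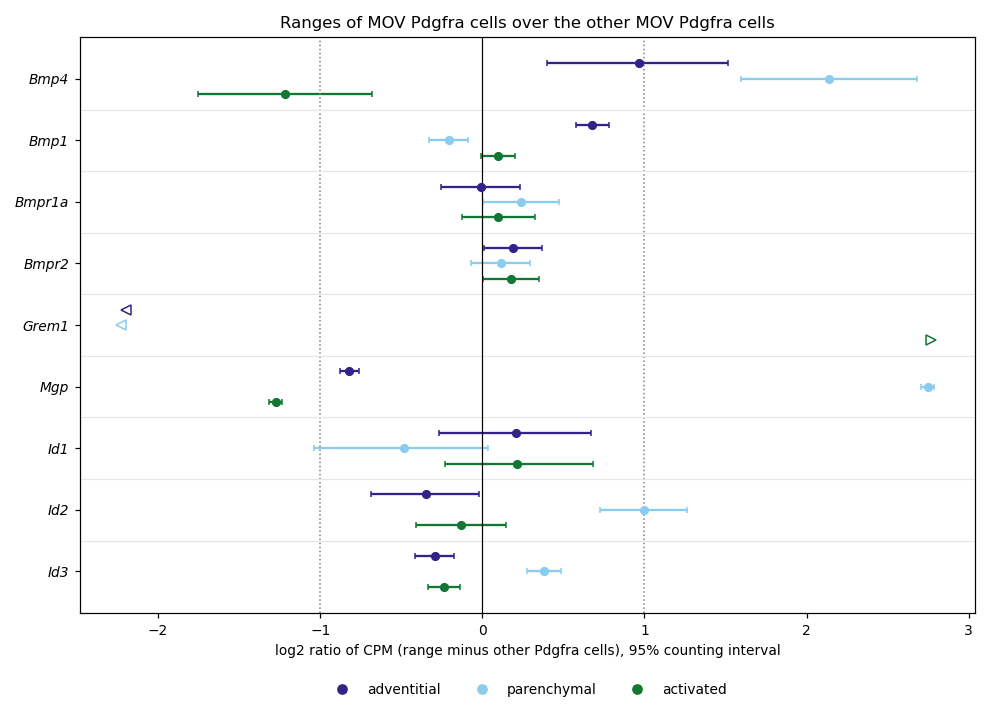
log2 ratio of CPM in the adventitial, parenchymal and activated ranges of MOV Pdgfra cells to CPM in the MOV Pdgfra cells outside each range, with 95% counting intervals and dotted lines at 2-fold. Mgp (2.75) and Bmp4 (2.14) lie past 2-fold in the parenchymal range, and open triangles for Grem1 are bounds at the 3-count limit.

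MOV Pdgfra cells were divided by lists for adventitial (95 cells), parenchymal (95) and activated (229) fibroblasts. Cells of the parenchymal range had 4805 CPM of Mgp and 24.8 CPM of Bmp4, against 716 and 5.65 CPM in the other Pdgfra cells, log2 ratios of 2.75 (2.70 to 2.79) and 2.14 (1.60 to 2.68). In the activated range both were past 2-fold lower, Mgp at -1.27 (-1.31 to -1.23) and Bmp4 at -1.22 (-1.75 to -0.68), the latter at -0.92 once cells with both marker lists were counted as Pdgfra cells. All 46 Grem1 UMIs were in activated-range cells, at least 6.82-fold above the other cells at the 3-count limit, on the 6 cells named above. In the adventitial range Bmp1 was 401 CPM against 250.3 CPM, 0.68 (0.57 to 0.78), within 2-fold. The shares of all genes past 2-fold were 4.21% higher and 6.70% lower for the parenchymal range, 2.97% and 4.09% for the activated range and 6.17% and 6.08% for the adventitial range. In sham, the activated range held only 2 Pdgfra cells, both with shared barcodes.

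A list of 54 further genes of the pathway gave the setting of the 10. Between MOV and sham MuSCs 39 of them entered, 2 past 2-fold higher and 9 lower, with a median log2 ratio of -0.30, beside -0.35 for the members and 0.11 for all genes. Of all genes 13.8% were higher and 9.84% lower. Among the ligands, Bmp2 was 27.4 CPM in sham and 9.10 CPM in MOV, and Bmp6 was 29.6 and 5.70 CPM. Bambi, a decoy receptor without kinase activity, was 25.2 and 8.25 CPM, and Id4 was 15.1 and 5.19 CPM. Pcolce, an enhancer of BMP1 action on procollagen, was 30.3 and 77.0 CPM, one of the higher genes.

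**Figure D5:**
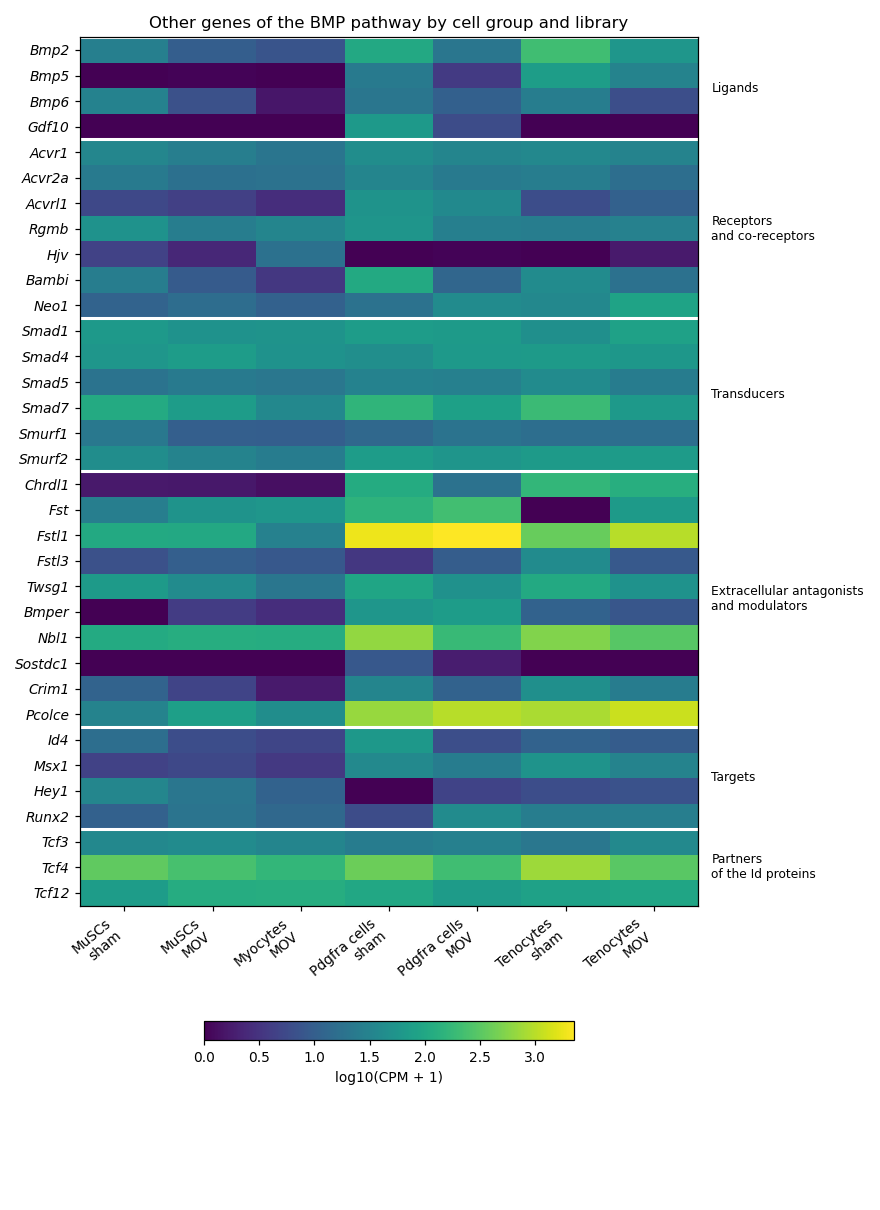
Level of further BMP pathway genes, as log10(CPM + 1) on a colour scale, in the cell groups of both libraries, ordered by role. Fstl1 and Pcolce are highest in Pdgfra cells and tenocytes, and Bambi and Id4 are lower in MOV than in sham in MuSCs and Pdgfra cells.

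Pdgfra cells were alike in direction. Of 38 genes that entered, 3 were past 2-fold higher and 12 lower in MOV, with a median of -0.45, where 11.9% of all genes were higher and 16.7% lower. Bmp2 (105 CPM in sham, 19.6 CPM in MOV), Gdf10 (62.4 and 5.07 CPM), the antagonist Chrdl1 (115 and 17.3 CPM), Bambi (107 and 12.0 CPM) and Id4 (59.9 and 5.32 CPM) were among the lower genes. Runx2, which encodes a transcription factor of bone formation, was 4.99 CPM in sham and 40.4 CPM in MOV. In MOV tenocytes 3 of 26 were higher and 6 lower, beside 17.8% and 12.0% of all genes, and among the lower were Bmp2 (210.4 CPM in sham, 57.6 CPM in MOV) and Smad7, which encodes an inhibitor of the receptors (189.9 and 64.4 CPM). In the MOV library 17 of 43 pathway genes were past 2-fold higher in Pdgfra cells than in MuSCs and 5 lower, beside 19.1% and 15.5% of all genes, and 8 of the 12 antagonists and modulators that entered were higher, such as Fstl1 (2259 against 104 CPM), Bmper (70.8 against 2.99 CPM) and Fst (219 against 51.1 CPM). Chrdl2, with its higher level in MuSCs, lay on the other side from those 8. Within MOV MuSCs, 9 of 39 pathway genes were past 2-fold higher in the immediate-early range and none lower, beside 7.99% and 3.10% of all genes. In the quiescence range 8 were higher, Bmp6 among them, and 1 lower, beside 7.42% and 11.9% of all genes.

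For each member, the genes with the most similar levels were ranked over 12 profiles (cell groups of at least 20 cells in each library, which share libraries and depth) among 12281 genes. Chrdl2 was most like Calcr (r = 0.997) and Tmem255a (r = 0.99); Calcr encodes a receptor of quiescent MuSCs and is on the quiescence list. Bmp1 was most like the collagen genes Col6a1 (r = 0.98) and Col5a3 (r = 0.97). Among the Id genes, Id1 was most like Shb (r = 0.95), Id2 like Rbpj (r = 0.94), which encodes the Notch effector, and Id3 like Rock2 (r = 0.98). The ligand Bmp4 was most like Khnyn (r = 0.96) and then Inhbb (r = 0.95), and Mgp like Slc35d1 (r = 0.95). Bmpr1a and Bmpr2 were most like Abhd14a (r = 0.95) and Hdgfl3 (r = 0.95), and Grem1, seen in few cells, like Gzmn (r = 0.999). No member was among the 2 most similar genes of another member.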

How the data were processed

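Single-cell RNA-seq counts from 1 sham and 1 MOV library of sorted plantaris cells were analysed. The authors deposited filtered UMI counts per gene and cell, made with Cell Ranger 6.0.0 on mm10 per the submitters' processing notes; their later steps in Seurat 4.0.2 were not used. The libraries held 7302661 (sham) and 88498487 (MOV) UMIs. Cells with at least 10% mitochondrial UMIs, under 1000 UMIs or a high doublet score (0.8% per 1000 cells, scanpy 1.11.5) were removed, leaving 671 and 2798. Cells were grouped by UMIs of fixed marker lists per 10000 UMIs, with at least 2 markers and 3 marker UMIs; 26 sham and 151 MOV cells that passed several lists, and 30 and 124 that passed none, were left out. The 44 barcodes common to both libraries were kept and left out in turn.

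UMIs were summed per group and divided by the group's total (CPM), with exact Poisson 95% intervals. Ratios had exact conditional 95% intervals, and shares of cells, thinned to 2000 UMIs, had Clopper-Pearson intervals. Thinning left out cells with under 2000 UMIs. A value at 0 UMIs was set against 3 counts. PCR copies are removed by UMIs, and all intervals cover counting error only. A ratio was counted past 2-fold on its point value, among genes with at least 20 UMIs in both cell sets together. With 1 library per condition no p-value was computed. The interval code was tested on simulated data.

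The text names all 10 members, pathway genes that reached 20 CPM on 20 UMIs in a group, and the genes most correlated with each member over log2(CPM + 10) profiles. Members and lists were chosen with earlier results of these data known. Alternatives were other mitochondrial, doublet, depth and marker limits, thinning, TMM (edgeR 4.0.16) and DESeq2 1.42.0 size factors on the summed counts, and no low-count filter. Start regions came from RefSeq. Python 3.11.15, numpy 2.4.6, scipy 1.17.1, pandas 2.3.3 and matplotlib 3.10.9 were used.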

Additional observations from a re-analysis of the deposited data

Results flagged for a closer look

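In 3 cell groups of the MOV library that entered no comparison, a member stood above all groups compared in that library, with intervals that did not overlap. Id3 was at 1097 CPM in 28 mural cells. Id2 was at 433 CPM in 61 immune cells. Bmp4 was at 111 CPM in 21 endothelial cells, on 22 UMIs of which 10 came from 1 cell. The sham library held 2 mural, 2 immune and 3 endothelial cells, too few to set beside them.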

How the results depend on the processing

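Over the alternatives, 179 of 188 counts of members past 2-fold or of levels stayed within 1.5 times the count given. The count between MOV and sham MuSCs went from 2 to 4 with cells thinned to 2000 UMIs and to 4 with every cell weighted equally, in both cases by the addition of Bmp1 and Id2. With thinning, the count over ranges of Pdgfra cells went from 7 to 3 (18 ratios entered in place of 27) and that between MOV and sham tenocytes from 4 to 2 (3 members entered in place of 8). The count for S phase or G2/M against other MOV MuSCs went from 3 to 1 with the stricter marker numbers, with TMM factors, with DESeq2 size factors and with every cell weighted equally, which left Chrdl2. The count for cells with both marker lists against Pdgfra cells went from 1 to 2 with the stricter numbers. Of the 68 member ratios past 2-fold, 781 of 782 alternative values kept the sign and 755 were also past 2-fold. All alternatives reuse the same counts. Sizes were less stable: over all member ratios, 435 of 2250 alternative values left the counting interval or, without one, changed. For levels, 149 of 770 lay outside it. Thinning moved most, with 111 ratios moved and 53 not, and 44 levels moved and 26 not. The 1 that reversed was Mgp in the sham quiescence range against other sham MuSCs, from -1.92 to 2.32 without the shared barcodes. Leaving out shared barcodes, weighting cells equally, counting cells with both marker lists as Pdgfra cells, and every alternative for the tenocyte comparisons other than that with MOV MuSCs, for the cells with both marker lists, for MOV against sham in the quiescence range or outside S and G2/M, and for S phase or G2/M together were chosen after seeing the data.

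No paired analysis was possible because each condition had 1 library, and no library could be left out in turn. Differences between animals, sorts and library depths cannot be told apart from the effect of MOV. Sham groups of 18 to 114 cells limit the values of Bmp4, Grem1 and Bmp1.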
